A study of Homo sapiens with 2 samples.

Results

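The genes described here encode the cytoplasmic translation initiation factors other than eIF2. They were chosen by name: protein-coding rows whose symbol starts with EIF1, EIF3, EIF4, EIF5 or EIF6 and whose locus is not on chromosome Y. The rule found 40 of the 58302 genes in the deposited table. They comprised 4 genes of eIF1, 14 of eIF3, 13 of eIF4, 3 of the eIF4E-binding proteins (EIF4EBP), 5 of eIF5 and 1 of eIF6. The study sequenced RNA from HL60, an established human line of acute myeloid leukemia with promyelocytic features, that carries an EIF2S3 transgene under a Tet-Off promoter. In a Tet-Off system, adding doxycycline stops transcription of the transgene. One group, labelled DOX(-), was untreated and should overexpress EIF2S3. The other, labelled DOX(+), received doxycycline, which should switch the transgene off. Both groups were HL60-EIF2S3 cells and each was 1 library, so differences between cultures could not be estimated and no p-value was made. The doxycycline itself also differs between the groups, and the labels give no dose, no time and no word on whether the line is 1 clone.

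Initiation brings the ribosome to the start codon of an mRNA in ordered steps. eIF1, eIF1A and the large eIF3 complex bind the small subunit and, with eIF5, help to load the initiator tRNA carried by eIF2. The eIF4F complex (the cap-binding protein eIF4E, the scaffold eIF4G and the helicase eIF4A) recruits that subunit to the capped mRNA, and the 4E-binding proteins compete with eIF4G for eIF4E when mTORC1 is inactive. eIF5B joins the large subunit after the start codon is found, and eIF6 keeps free large subunits from joining too early.

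The deposited values are FPKM, which count fragments per kilobase of transcript and relative to the library's depth. The steps between low values gave depths of 16577788 fragments for DOX(-) and 18519439 for DOX(+). EIF2S3, the targeted gene, was listed at 133 and 126 FPKM in DOX(-) and DOX(+). The counting interval of that ratio, 1.05, ran from 0.927 to 1.20 on its shortest transcript and from 1.02 to 1.09 on its longest, which lay above equal levels. No difference of 1.5-fold was seen in this row, and the groups are named by their labels below. Of 8 promyelocyte markers, 7 reached 1 FPKM (median log2 ratio 0.27), while MPO was low at 0.274 and 0.469 FPKM. Of those 7, 4 were above equal levels: ELANE (0.40), AZU1 (0.53), PRTN3 (0.29) and CTSG (0.27). CD33 and MYB were nearly level, and CEBPE was lower in DOX(-), at 8.93 and 12.6 FPKM (-0.46, interval 0.597 to 0.837). Markers of T cells and of epithelial cells were at 0 in both libraries. The summed markers of B cells, erythroid cells, fibroblasts and monocytes did not pass 0.281 FPKM in either library, and PECAM1 was the only endothelial marker listed above 0 (10.8 and 11.8 FPKM).

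In each pair of values, DOX(-) comes first. Log2 ratios are DOX(-) over DOX(+) on the log2(FPKM + 1) scale, which pulls low genes towards 0, and a gene was called when it differed at least 1.5-fold on that scale. Counting intervals are exact 95% intervals of the plain FPKM ratio. They cover counting error only and use the shortest annotated transcript, which gives the fewest fragments. Of the 40 genes, 39 reached 1 FPKM in at least 1 library, and EIF4E1B, a germline relative of eIF4E, was at 0 in both. By this rule 1 of the 39 (2.56%) was higher in DOX(-), where 3.11% of all 11525 genes at that level were. None was lower, against 4.06% of all genes. Among the protein-coding genes alone, 2.36% were higher and 2.98% lower. At 1.5-fold the called share is therefore close to the background, though it rests on 1 gene. In such bulk RNA, fewer cells of a type and less RNA per cell cannot be told apart. At 2-fold no member was called in either direction, against 0.833% of all tested genes higher and 1.20% lower. At a smaller log2 difference of 0.32, 9 of the 39 members were higher, a larger share than the 9.98% of all tested genes. They were EIF1, EIF3CL, EIF3D, EIF3G, EIF3H, EIF3L, EIF4A1, EIF4B and EIF4EBP1. Not all kept that size in the FPKM sums with copies given below. EIF1 (0.30) and EIF4A1 (0.00) lay under 0.32, and EIF3C with EIF3CL (0.36), EIF3L (0.41) and EIF4B (0.52) lay above it. At a difference of 0.32, 4 of the 39 were lower (EIF1AX, EIF3J, EIF4G2 and EIF5B), a share close to the 12.9% of all tested genes. EIF1AX with its copies had a log2 ratio of -0.22. The 39 log2 ratios ran from -0.49 to 0.66 with a median of 0.01, beside -0.02 for all tested genes, and 20 were above 0 and 19 below. The median turned to -0.02 when the libraries were scaled to their protein-coding nuclear genes. Exons of 21 of the 40 genes overlap those of another gene, on the same strand for 8. Whether the counting used strand is not stated, so reads of such neighbours may be mixed. EIF1 and EIF1AX are free of such overlaps. EIF5B shares 852 nt with REV1 on the opposite strand (2.43 and 2.62 FPKM), and EIF1AD 98 nt with BANF1 (6.30 and 12.0 FPKM).

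**Figure D1:**
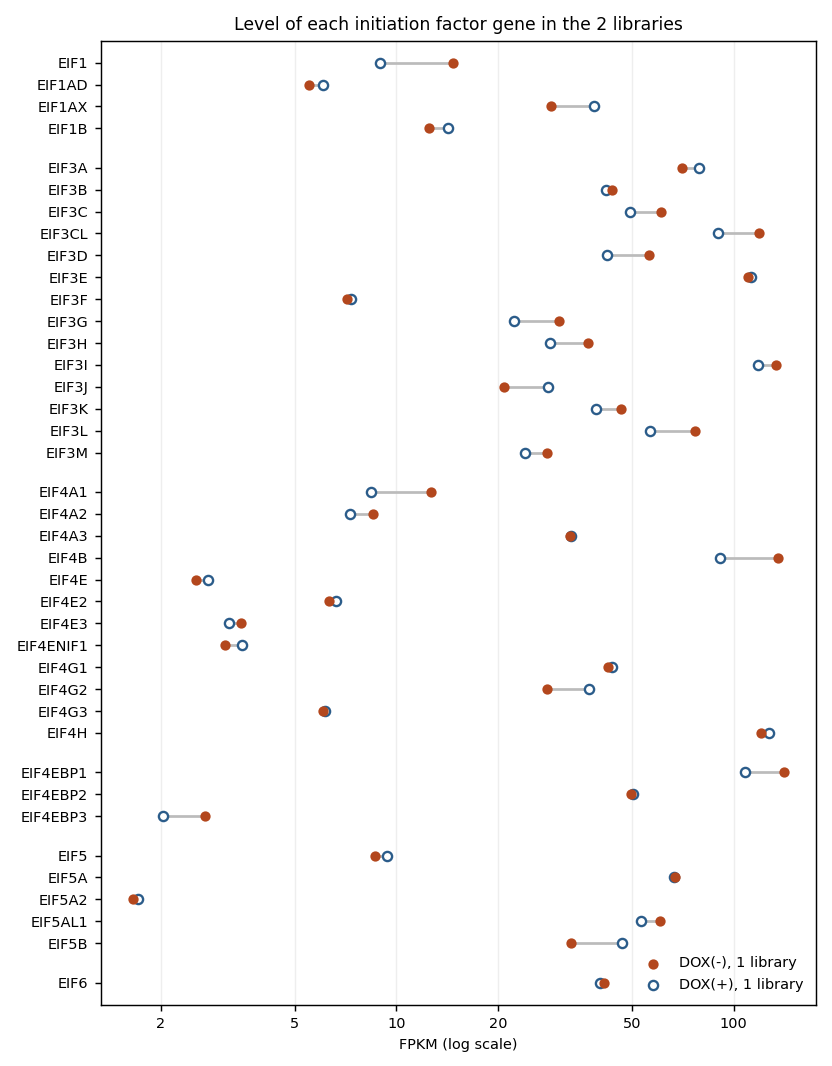
FPKM (log scale) of the 39 initiation factor genes at 1 FPKM or more, grouped by factor from eIF1 at the top to eIF6; filled points are the DOX(-) library and open points the DOX(+) library, with no replicates. Levels run from 1.66 FPKM (EIF5A2) to 141 FPKM (EIF4EBP1) in DOX(-), and most pairs of points lie close together.

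eIF1 and eIF1A sit beside the decoding site and keep the scanning ribosome from stopping at the wrong codon. EIF1 (ENSG00000173812, chromosome 17, 41688885 to 41692668, GRCh38) stood at 14.7 FPKM in DOX(-) against 8.94 in DOX(+). This was the highest log2 ratio of the 39 genes, 0.66, with a plain ratio of 1.65 and a counting interval of 1.26 to 2.16, and 2.20% of all tested genes had a higher one. With the FPKM of its pseudogene rows added, described below with the other copies, EIF1 had a log2 ratio of 0.30, under 1.5-fold. That result depends on adding FPKM of rows of unequal length. The interval of the gene alone rests on 140 and 95 fragments on the shortest transcript of 572 nt. Its close paralog EIF1B went the other way, at 12.5 and 14.2 FPKM, with an interval of 0.692 to 1.11 that included equal levels. EIF1 thus held 54.2% of the summed FPKM of the pair in DOX(-) and 38.6% in DOX(+). With pseudogene rows counted, its shares were 64.4% and 56.0%, so it led in both libraries. EIF1AX, the X-linked gene of eIF1A (chromosome X, 20124518 to 20141844), was at 28.7 and 38.6 FPKM, a log2 ratio of -0.41 with an interval of 0.650 to 0.852. EIF1AD, a nuclear protein that shares the eIF1A domain, was at 5.49 and 6.07 FPKM. The eIF1 genes therefore had no common direction: 1 lay above 0 and 3 below.

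eIF3 is the largest initiation factor, a scaffold of the small subunit that binds eIF1, eIF4G and the mRNA. Of its 14 genes, 10 (71.4%) were above 0, where 46.6% of all tested genes were, but none differed 1.5-fold. Their median log2 ratio was 0.22, between 0.19 and 0.25 under the other scalings, pseudocounts and filters and without genes that share exons with another gene. The intervals lay above 1 for 8 of the genes and below 1 for 2. Of all tested genes, 7.60% lay above and 8.52% below, and of protein-coding genes that reached 5 FPKM, 10.1% and 11.5% did. The near-identical EIF3C and EIF3CL both count among the 10 and the 8, though their rows may hold the same fragments. Among the PCI and MPN subunits, which form the core of the complex, EIF3L was at 76.6 and 56.5 FPKM (0.43), and EIF3H, an MPN subunit, at 36.9 and 28.6 FPKM (0.35). EIF3C was at 60.8 and 49.3 FPKM (0.30) and its near-identical copy EIF3CL at 119 and 90.0 FPKM (0.39). EIF3C and EIF3CL transcripts aligned with 99.9% identity and an exact run of 2089 nt, so the division between their rows is uncertain. Together they stood at 179 and 139 FPKM, a log2 ratio of 0.36.

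The rest of the core was closer to equal. EIF3K was at 46.4 and 39.1 FPKM (0.24) and EIF3M at 27.9 and 24.0 FPKM (0.21). EIF3E, which binds eIF4G, was nearly level at 110 and 113 FPKM (-0.04), as was the MPN subunit EIF3F at 7.13 and 7.33 FPKM (-0.03). EIF3A, the largest subunit, was at 70.5 and 78.8 FPKM, a log2 ratio of -0.16 with an interval of 0.834 to 0.961. Of the 9 PCI and MPN genes, 6 were above 0.

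Outside that core, the RNA-binding subunit EIF3G was at 30.4 and 22.4 FPKM (0.42, interval 1.08 to 1.70). EIF3D, a subunit with cap-binding activity of its own, was at 56.0 and 42.0 FPKM (0.41, interval 1.16 to 1.54). EIF3I, a WD-repeat subunit, was at 134 and 118 FPKM (0.18), and its partner EIF3B at 43.7 and 41.9 FPKM (0.06). EIF3J, a loosely bound subunit that reaches into the mRNA channel, had the lowest ratio of the complex, at 20.8 and 28.2 FPKM (-0.42, interval 0.585 to 0.931). The intervals of the lowest and the highest eIF3 ratios do not overlap. These genes were picked as the extremes of the 14, and the intervals make no allowance for that choice. Whether the rows of the complex share a common shift was not tested.

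The 12 tested eIF4 genes had no common direction, also among genes of like role, with 4 above 0 and a median of -0.03. EIF4B, a cofactor that stimulates the eIF4A helicase (ENSG00000063046, chromosome 12, 53006158 to 53042209), was at 135 and 91.1 FPKM. Its log2 ratio of 0.56 lay just under the 1.5-fold line of 0.58, and it passed that line under median-of-ratios and trimmed-mean scaling. The counting interval was 1.34 to 1.65. EIF4H, a relative of EIF4B with the same role, was nearly level at 121 and 127 FPKM (-0.07). Among the helicases, EIF4A1 was at 12.7 and 8.43 FPKM (0.54), EIF4A2 at 8.51 and 7.27 FPKM (0.20) and EIF4A3, which acts in the exon junction complex rather than in initiation, at 32.8 and 32.9 FPKM (-0.00). The interval of EIF4A1, 0.928 to 2.45, included equal levels on the shortest of its 37 transcripts, and on the longest it ran from 1.29 to 1.77. EIF4A1 passed 1.5-fold with a pseudocount of 0.1.

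Among the scaffolds, EIF4G2 (also known as DAP5), which lacks the eIF4E-binding part, was at 28.0 and 37.2 FPKM. This log2 ratio of -0.40 had an interval of 0.574 to 0.992, close to equal levels on its shortest transcript of 198 nt and 0.719 to 0.787 on its longest. The canonical scaffold EIF4G1 was at 42.4 and 43.6 FPKM (-0.04) and EIF4G3 at 6.04 and 6.13 FPKM (-0.02). EIF4G1 held 55.5% of the summed scaffold FPKM in DOX(-) and 50.2% in DOX(+).

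The rows of the cap-binding genes themselves were low. EIF4E was listed at 2.54 and 2.77 FPKM, EIF4E2, which represses translation of bound mRNAs, at 6.31 and 6.60 FPKM, and EIF4E3 at 3.46 and 3.19 FPKM. EIF4ENIF1, also known as 4E-T, which binds eIF4E and carries it into the nucleus, was at 3.10 and 3.49 FPKM. All 4 intervals included equal levels, and the shortest transcripts gave between 13 and 31 fragments, too few to detect small differences on that basis. On the longest transcripts the fragments ran from 190 (EIF4ENIF1 in DOX(-)) to 590 (EIF4E in DOX(+)). All 4 intervals were narrower there and still included equal levels, at 0.813 to 1.04 for EIF4E and 0.963 to 1.22 for EIF4E3. Most EIF4E-like signal was listed elsewhere: its near-identical pseudogene EIF4EP2 was at 82.0 and 94.9 FPKM (-0.21, interval 0.790 to 0.943).

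Of the 4E-binding proteins, EIF4EBP1 had the highest level of all 39 genes in DOX(-), at 141 FPKM against 108 FPKM in DOX(+). Its log2 ratio was 0.38 with an interval of 1.21 to 1.40. EIF4EBP2 was level at 49.6 and 50.2 FPKM. This gene has 1 annotated transcript, of 7257 nt, so its 5965 and 6745 fragments are read directly from the values, and the interval of 0.954 to 1.02 was the tightest among the 4E-binding proteins. EIF4EBP3 was low, at 2.71 and 2.03 FPKM (31 and 26 fragments, interval 0.765 to 2.34). It shares 507 nt of exon with the readthrough gene ANKHD1-EIF4EBP3, listed at 9.92 and 9.13 FPKM. EIF4EBP1 held 72.9% of the summed FPKM of the 3 genes in DOX(-) and 67.5% in DOX(+).

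Late factors of initiation gave the lowest ratio of the set. EIF5B, the GTPase of subunit joining (ENSG00000158417, chromosome 2, 99337353 to 99401326), was at 33.0 and 46.8 FPKM. Its log2 ratio was -0.49 with an interval of 0.611 to 0.815, and 93.9% of all tested genes had a higher one. EIF5, the GTPase-activating protein of eIF2, was at 8.63 and 9.40 FPKM (-0.11). EIF5A, the hypusine-containing factor now known mainly for elongation and termination, was at 66.9 and 66.4 FPKM (0.01), and its paralog EIF5A2 at 1.66 and 1.71 FPKM. EIF5AL1, an intronless copy of EIF5A that is annotated as protein-coding, was at 60.7 and 53.3 FPKM (0.18). EIF6 was at 41.2 and 40.2 FPKM (0.04, interval 0.878 to 1.20).

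**Figure D2:**
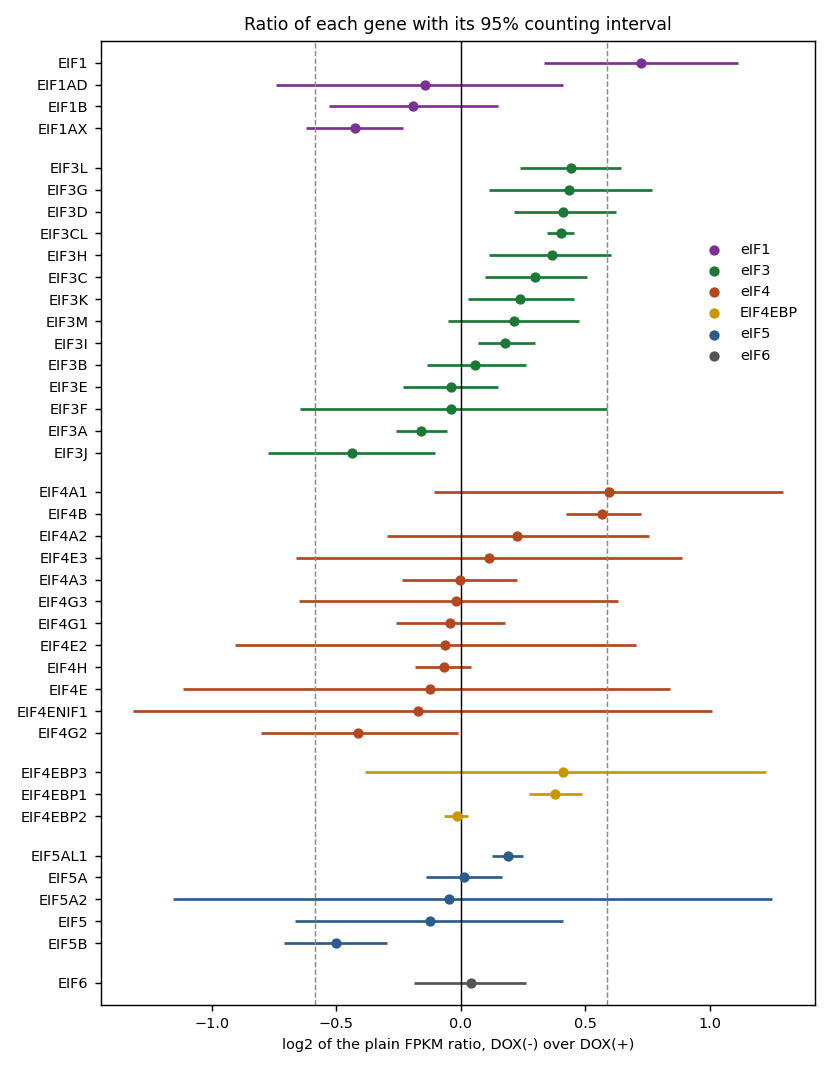
Log2 of the plain FPKM ratio, DOX(-) over DOX(+), for the 39 genes by factor; bars are exact 95% counting intervals on the shortest annotated transcript and cover counting error only, and dashed lines mark 1.5-fold. EIF1 lies highest and EIF5B lowest, 12 bars lie wholly above 0 and 5 wholly below.

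Over the 39 genes, 12 intervals on the shortest transcript lay above equal levels and 5 below. On the same basis 7.60% of all tested genes lay above and 8.52% below, and of the protein-coding genes that reached 5 FPKM, as 34 of the 39 did, 10.1% and 11.5% did. With fragments placed on the longest transcript, 15 of the 39 lay above and 6 below. The background rose with it, to 18.1% above and 23.4% below for all tested genes and to 25.4% and 30.6% for protein-coding genes that reached 5 FPKM. An interval narrows as the level rises, so these shares are set side by side and were not compared by a test.

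Several factors had a higher FPKM in a pseudogene row than in the row of the gene itself. These genes have processed pseudogenes, intronless copies of the mRNA placed elsewhere in the genome. Stretches of parent and copy are shown because they are so alike that a short read can match both. Each line gives 60 nt of the parent's coding sequence and the same stretch of the copy, 5′ to 3′, from GENCODE 29, with the bases that differ in capitals. The window shown is the one with the most differences within the coding sequence, counted from 1 at the start codon. It is position 1 to 60 for EIF1AX and EIF4E, 691 to 750 for EIF3F and 171 to 230 for EIF4A1.
EIF1AX: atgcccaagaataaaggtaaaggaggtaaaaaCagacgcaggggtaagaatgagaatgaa
EIF1AXP1: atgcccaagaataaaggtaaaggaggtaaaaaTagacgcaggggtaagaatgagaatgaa
EIF4E: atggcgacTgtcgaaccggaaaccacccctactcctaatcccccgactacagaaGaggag
EIF4EP2: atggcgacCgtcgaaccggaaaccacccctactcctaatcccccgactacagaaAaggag
EIF3F: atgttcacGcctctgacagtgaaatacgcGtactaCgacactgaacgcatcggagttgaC
EIF3FP3: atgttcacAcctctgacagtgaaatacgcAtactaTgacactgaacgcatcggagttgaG
EIF4A1: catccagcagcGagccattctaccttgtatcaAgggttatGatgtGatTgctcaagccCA
EIF4A1P10: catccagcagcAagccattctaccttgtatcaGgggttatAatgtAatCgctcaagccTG

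Over the whole coding sequence, EIF1AXP1 (chromosome 1, 16685621 to 16686055) differed from EIF1AX at 2 of 432 positions. EIF4EP2 (chromosome 17, 49424269 to 49424922) differed from EIF4E at 4 of 651. EIF3FP3 on chromosome 2 differed from EIF3F at 27 of 1083 aligned positions, and EIF4A1P10 on chromosome X from EIF4A1 at 36 of 1217.

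The copies were listed at high levels. EIF1AXP1 was at 202 and 230 FPKM, 7.03 and 5.96 times its parent. EIF4EP2 was at 32.3 and 34.3 times the level of EIF4E. EIF3FP3 was at 111 and 91.9 FPKM, 15.6 and 12.5 times EIF3F. EIF4A1P10 was at 152 and 145 FPKM, 11.9 and 17.2 times EIF4A1. For 2 abundant genes the copy was also above its parent: EIF4HP1 at 183 and 206 FPKM (1.51 and 1.63 times EIF4H) and EIF5AP4 at 283 and 290 FPKM (4.23 and 4.37 times EIF5A). These multiples are of FPKM, and the copies are short. EIF1AXP1 held 1455 and 1851 fragments. EIF1AX held 364 and 546 on its shortest transcript and 2106 and 3161 on its longest. EIF4HP1, at 2083 and 2625, likewise lay between the shortest (1148 and 1345) and the longest (5366 and 6288) of EIF4H. EIF4EP2, EIF3FP3, EIF4A1P10 and EIF5AP4 held more fragments than their parents on either transcript. Whether fragments listed under these copies came from the parent genes was not tested.

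**Figure D3:**
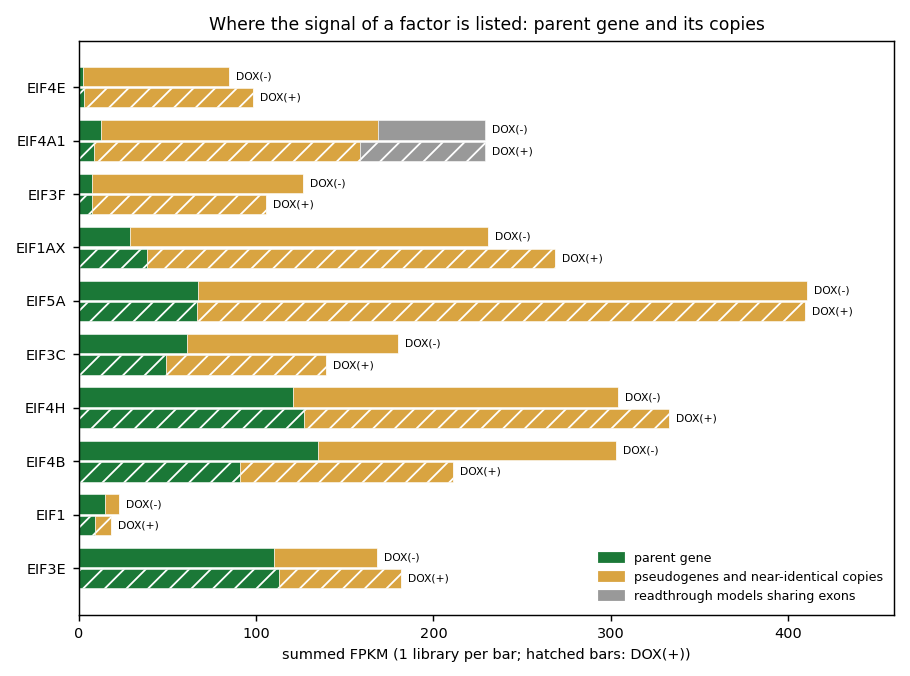
Summed FPKM of 10 parent genes (green), their pseudogenes and near-identical copies (yellow) and readthrough gene models that share their exons (grey), with the DOX(-) library above and the DOX(+) library, hatched, below in each pair. The parent row holds 2.99% of the EIF4E sum and 5.66% of the EIF3F sum in DOX(-), and 65.5% of the EIF1 sum.

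The table held 79 pseudogenes of these factors outside chromosome Y. Of these, 43 were at 0 in both libraries, and 13 reached 5 FPKM in at least 1. Identity to the parent transcript ran from 92.7% to 99.5% in the 13 and from 60.7% to 94.5% in the 43. All 10 copies with an identity of 97% or more were at 5 FPKM or more, 3 of 32 between 90% and 97% were, and none of 37 below 90%. Identity classes were set after the values were seen. The longest exact run shared with the parent had a median of 216 nt in the 13 and 40 nt in the 43. The 9 pseudogenes of EIF4B show the pattern within 1 gene. EIF4BP3 (98.1% identity), EIF4BP6 (97.7%) and EIF4BP7 (97.1%) were at 34.7, 45.5 and 87.8 FPKM in DOX(-) and at 23.3, 33.3 and 62.6 FPKM in DOX(+). The other 6, with identities from 83.7% for EIF4BP4 to 93.1% for EIF4BP8, did not pass 0.181 FPKM in either library.

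**Figure D4:**
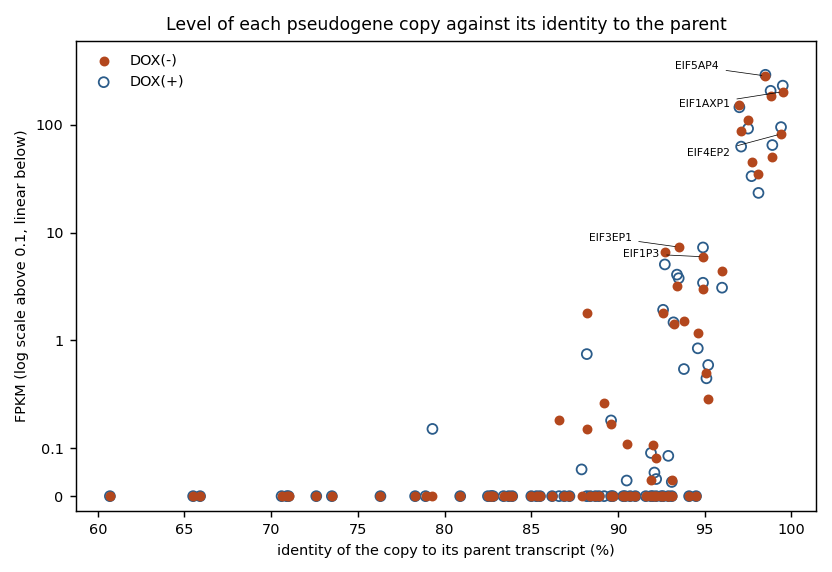
FPKM (log scale above 0.1, linear below) of the 79 pseudogenes against the percent identity of their transcript to the parent; filled points are DOX(-) and open points DOX(+). The 10 copies at 97% identity or more all lie at high levels, and most copies below 90% lie at 0.

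When each gene was summed with its copies and readthrough models, an alternative chosen after seeing the data, some ratios kept their size and others did not. FPKM of rows of unequal length were added, so a fragment on a short copy weighs more than a fragment on a long transcript. These sums show where FPKM is listed and are neither shares of fragments nor levels of 1 transcript. EIF4B and its copies stood at 303 and 211 FPKM, a log2 ratio of 0.52 beside 0.56 for the gene alone. The 3 abundant EIF4B copies had log2 ratios of 0.56 (EIF4BP3), 0.44 (EIF4BP6) and 0.48 (EIF4BP7), each with an interval above 1. EIF4A1 lost its difference: with its copies and the same-strand models SENP3-EIF4A1 (48.8 and 57.5 FPKM) and AC016876.2 (11.7 and 13.1 FPKM), the sum was 229 FPKM in both libraries, a log2 ratio of 0.00. EIF1 and its 7 pseudogenes, of which EIF1P3 was the highest at 5.96 and 7.27 FPKM, summed to 22.5 and 18.1 FPKM. The log2 ratio of that sum was 0.30, under 1.5-fold, beside 0.66 for the gene alone. This fall depends on adding FPKM. EIF1P3 held 33 and 45 fragments. EIF1 held 140 and 95 on its shortest transcript and 569 and 386 on its longest. No ratio was made from summed fragments.

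Among the other factors, EIF3F with its copies was at 126 and 106 FPKM, and its log2 ratio went from -0.03 to 0.25, near the median of the eIF3 genes. EIF1AX with its copies was at 230 and 268 FPKM (-0.22, from -0.41). EIF4E with its copies was at 84.8 and 98.4 FPKM (-0.21), EIF4H at 304 and 333 FPKM (-0.13), EIF3E at 168 and 182 FPKM (-0.11) and EIF5A at 411 and 410 FPKM (0.00). By the parent rows alone EIF4E held 20.6% of the summed cap-binding FPKM in DOX(-), and with pseudogene rows 89.7%. For EIF4A1 among the helicases the shares were 23.6% and 79.8%. In the cap-binding and helicase families, the leading paralog thus changed when the pseudogene rows were counted. In the eIF1 pair it changed in DOX(+) only. The leader of the scaffolds, of the 4E-binding proteins and of eIF5A was the same either way. These shares leave out the readthrough models, and they are shares of FPKM, in which short copies weigh more, and not of fragments.

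Many mRNAs of the translation machinery begin with a cytosine and an unbroken run of pyrimidines, the terminal oligopyrimidine (TOP) feature through which mTORC1 controls their translation. Textbook examples within eIF3 are EIF3E, EIF3F and EIF3H, whose log2 ratios were -0.04, -0.03 and 0.35. RefSeq start sites (GRCh38.p14) were given for 33 of the 40 genes, 47 starts in all. A start with C followed by C or T up to a run of at least 5 was found in 6 starts of 6 genes, 12.8% of these starts. Over all 35116 starts in that table the share was 4.07%, and over the starts of tested protein-coding genes 5.51%. The minimum run of 5 was set after the sequences were seen, and 1 strand, that of the gene, was read. Each line shows 20 bases before the start and 10 from the start, with the pyrimidine run at the start in capitals. The 6 genes with the run come first and the gene with the highest log2 ratio (EIF1) and the 3 with the lowest follow. None of these 4 had such a run.
EIF4B: cgtgattgcctcatccgggtCTTTTgcgtt
EIF3D: ccgctgcgcgcgcatgtttcCTCTTTTCCT
EIF3F: gtcatttccgcttccgcctcCTTCTTTCTC
EIF3K: gtcgtttccgtttccaccacCTCTTCCTgt
EIF3M: gcgtcgcgcggcccagttccCTTTTCCggt
EIF4A2: gggtggttgggcgccgctgtCTTTTCagtc
EIF1: aacacaggcaccgcccctctgccccagtca
EIF1AX: gcgacgcaaagagtcgcggcgccatttgct
EIF3J: tgactcacctccgccgtgctaactcctcgc
EIF5B: cgcttgcgcactgagaactcacaccatatg

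The EIF4B window lies at chr12:53006436-53006465 on the plus strand, that of EIF3D at chr22:36529157-36529186 on the minus strand and that of EIF5B at chr2:99337369-99337398 on the plus strand. The 6 genes with the run had a median log2 ratio of 0.22, from -0.03 (EIF3F) to 0.56 (EIF4B), and 5 of 6 were above 0. Most of the 6 (EIF3D, EIF3F, EIF3K and EIF3M) are eIF3 genes, and the eIF3 genes as a whole also had a median of 0.22. Among genes with other starts, only EIF3B, EIF3C, EIF3I and EIF3J belong to eIF3. The start and membership in eIF3 thus overlap, and their parts were not tested. The 26 tested genes with other starts had a median of -0.02, and 10 of 26 were above 0. The 7 genes with no start in the table (EIF3A, EIF3CL, EIF3E, EIF3G, EIF3H, EIF3L and EIF4EBP1) had a median of 0.38. Beyond the initiation factors, 47 ribosomal protein genes with such a start had a median of 0.20, with 85.1% above 0. The other 526 tested genes with such a start had a median of 0.03, with 56.3% above 0, and 6879 genes with other starts had a median of -0.03, with 45.3% above 0. These are descriptions: annotated starts can lie some bases from those used in HL60, and the share of each mRNA that is translated was not measured.

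GC content moved with the ratios as well. Over the 39 genes the log2 ratio and the GC content of the longest coding transcript had a Pearson r of 0.43 and a Spearman rho of 0.42. Across 9230 tested protein-coding genes these were 0.26 and 0.34, from the same 2 libraries, and genes that share libraries are not independent points. When those genes were divided into 3 equal classes by GC content, the median log2 ratio was -0.13 in the lowest class, -0.00 in the middle and 0.06 in the highest. The initiation factors in the same classes had medians of -0.06 (16 genes), 0.18 (14 genes) and 0.29 (9 genes). EIF5B (38.6% GC), EIF3J (38.8%), EIF1AX (35.1%) and EIF4G2 (43.1%), the 4 lowest ratios, were all in the lowest class. Transcript length ran the other way, with a Pearson r of -0.32 over the 39 genes and -0.11 over all. The part of GC content and length in the ratios was not tested.

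**Figure D5:**
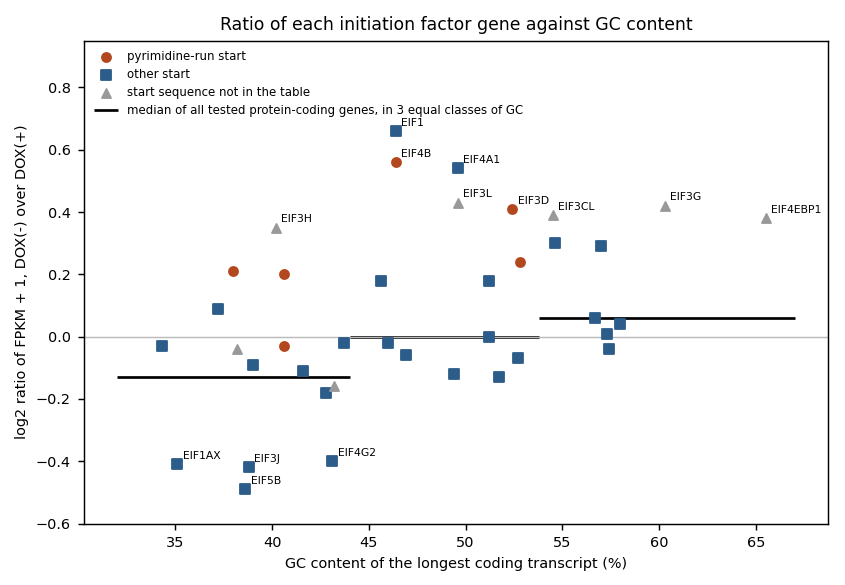
Log2 ratio of FPKM + 1, DOX(-) over DOX(+), of the 39 genes against the GC content of their longest coding transcript; circles have a pyrimidine-run start, squares another start and triangles no start in the table, and black lines are medians of all tested protein-coding genes in 3 equal GC classes. EIF5B, EIF3J, EIF1AX and EIF4G2 lie lowest, at 43.1% GC or less.

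Partners of these factors were mostly level. Of 33 genes in 5 lists, 32 were at 1 FPKM or more. None was 1.5-fold higher and 1 was 1.5-fold lower, against 3.11% and 4.06% of all tested genes. That gene was NCBP2, the small subunit of the nuclear cap-binding complex, at 1.87 and 3.71 FPKM (-0.72, interval 0.265 to 0.907), while its partner NCBP1 was at 23.1 and 25.5 FPKM. The partners' median was -0.05, and 12 of 32 were above 0. Among 15 tested partners of poly(A) binding and scanning, all within 1.5-fold, the poly(A)-binding protein PABPC1 was at 227 and 204 FPKM (0.16). DENR, which recycles small subunits after termination, was at 34.2 and 43.2 FPKM (-0.33, interval 0.691 to 0.903), and BZW1, which resembles eIF5, at 8.82 and 11.7 FPKM (-0.37).

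All 10 genes of the cap kinases and the mTORC1 arm lay within 1.5-fold. MTOR itself was at 18.3 and 17.0 FPKM (0.10), and RPS6KB1, the S6 kinase that phosphorylates EIF4B, was at 3.27 and 4.91 FPKM (-0.47, interval 0.376 to 1.13). On the longest transcript of RPS6KB1 the interval was 0.575 to 0.771. Of the enzymes that make hypusine on eIF5A, DOHH was level at 23.0 and 22.9 FPKM and DHPS was at 2.69 and 1.47 FPKM (0.58). The interval of DHPS, 0.697 to 5.05, included equal levels on its shortest transcript, and on its longest it ran from 1.20 to 2.85. SBDS, which helps EFL1 to release eIF6 from the large subunit, was at 17.3 and 18.7 FPKM, and EFL1 at 6.46 and 6.09 FPKM.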

How the data were processed

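Per the file headers, the authors deposited 1 FPKM value per gene and library in a table of 58302 genes. StringTie 1.3.4b, HISAT2 2.1.0, CASAVA 1.8 and edgeR stand in the submitters' processing notes without a role, as do hg38 and GRCh38 as builds. How reads that match several places were assigned was not given in the sources used here. Gene models came from GENCODE 29, which held 58039 of the table's genes and the same locus for 38 of the 40 members. Fragments were recovered from the FPKM steps of genes with 1 transcript, where 99.98% and 99.97% of the values up to 100 fragments were whole within 0.02. The floor of 3 fragments equals 0.181 and 0.162 FPKM for a transcript of 1 kb. FPKM takes no account of GC content or of copies elsewhere. With 1 library per group no test was run. Genes that reached 1 FPKM in at least 1 library were compared as log2(FPKM + 1), and intervals are exact conditional (Clopper-Pearson). No molecular identifiers mark the fragments, so they are not independent molecules. Copies were found by symbol or description and aligned locally with Biopython 1.88. The depth recovery, fold rule and intervals were tried on simulated counts, drawn on each gene's shortest transcript with counting error only. That simulation does not cover reads shared with copies, the choice of transcript or differences between cultures. Every member is named. Partner genes are named where past 1.5-fold, and others (PABPC1, NCBP1, DENR, BZW1, MTOR, RPS6KB1, DHPS, DOHH, SBDS and EFL1) were chosen after their values were seen. Members and lists were chosen with earlier results of these data known. Alternatives covered pseudocount, filter, scaling, size threshold, transcript length and exon overlaps. Protein identity between paralogs, planned, was not analysed here.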

Additional observations from a re-analysis of the deposited data

How the results depend on the processing

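No paired analysis was possible because each group has 1 library, and for the same reason none could be left out. The count of members 1.5-fold higher in DOX(-), 1 (EIF1), became 2 with a pseudocount of 0.1 or 0.01 (EIF4A1 added) and 2 under median-of-ratios and trimmed-mean scaling (EIF4B added). It was 0 at 2-fold and 9 at a log2 difference of 0.32, where 4 members in place of 0 were lower. With the FPKM of the pseudogene rows added to each gene, EIF1 fell from 0.66 to 0.30 and was no longer called, a result that depends on adding FPKM of unequal lengths. The median of the 4E-binding proteins, 0.29, was 0.38 with a pseudocount of 0.1 or 0.01 and 0.18 both with a filter at 5 FPKM and without genes that share exons. With a pseudocount of 0.1, 1 partner gene in place of 0 was 1.5-fold higher, DHPS. The medians of eIF3, eIF4 and eIF5 kept their sign under every pseudocount, filter and scaling run and without genes that share exons. Over members free of such overlaps, the median of all members was -0.01 and that of eIF1 turned from -0.15 to 0.12. The signs of EIF4A3, EIF4EBP2, EIF4G3 and EIF5A turned under at least 1 scaling. Placing fragments on the longest transcript moved the intervals of EIF3M, EIF4A1, EIF4A2 and EIF4H, and of the targeted EIF2S3, past equal levels. Among the partner genes it did so for DHX29, ABCE1, BZW1, LARP4, DHPS, MTOR, RPS6KB1 and NCBP1. Scaling moved the median of all tested genes to between -0.05 and 0.00.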
